A study of Mus musculus with 6 samples.

Results

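The NEDD4-family ubiquitin ligases Nedd4, Nedd4l, Itch, Wwp1, Wwp2, Smurf1 and Smurf2, and their membrane adaptors Ndfip1 and Ndfip2, were followed in embryonic mouse spinal cord cells with and without the mir-17~92 microRNA cluster. Their probes were found by the RefSeq accession that the array files give for each probe. This gave 13 probes for the 9 genes, among 55681 probes in all. Nedd4, Itch, Wwp2, Smurf1, Ndfip1 and Ndfip2 had 1 probe each, Nedd4l and Wwp1 had 2 and Smurf2 had 3. To be tested, a probe had to be called well above background on 2 or more of the 6 arrays. All 13 met this rule, as did 33264 probes in all.

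Cells were sorted from spinal cords of E12.5 embryos carrying the Hb9::GFP reporter, in which a motor neuron promoter drives the fluorescent protein. RNA was hybridised to 1-colour Agilent mouse arrays. The groups were GFP-positive motor neurons labelled mir-17~92 -/- ; Hb9::GFP (2 arrays), GFP-positive motor neurons labelled WT ; Hb9::GFP (2 arrays), GFP-off cells labelled mir-17~92 -/- ; Hb9::GFP (1 array) and GFP-off cells labelled WT ; Hb9::GFP (1 array), called here KO-labelled and WT-labelled. Every group carried the reporter and was of the same age. The labels do not say whether the 2 arrays of a group came from separate embryos or litters, so the p-values measure only the spread between these samples, which may be technical. The 2 GFP-off arrays have no replicates, and with so few arrays all values are imprecise. Levels are log2 signals minus the 75th percentile of the array, so a level of 0 is the signal at that percentile, and a difference of 1 is a 2-fold difference in scaled signal. Levels of different probes are not set against each other, apart from gaps between probes of the same gene and sums of scaled signal over marker genes. In sorted bulk samples, fewer cells of a type and less RNA per cell cannot be told apart.

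Ligases of this family carry a C2 domain that can bind membranes, WW domains that bind short proline-rich motifs (PY motifs) in other proteins, and a catalytic HECT domain that passes ubiquitin to the substrate. Ndfip1 and Ndfip2 are small proteins of Golgi and endosomal membranes whose PY motifs recruit the ligases and relieve their autoinhibition. Together they control the turnover and location of membrane channels, receptors and signalling proteins. The mir-17~92 cluster encodes microRNAs that lower target mRNAs by pairing of their seed. The comparison of genotypes asks whether mRNAs of the ligases and adaptors differed where the cluster was removed.

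The mature microRNAs of the cluster are shown because they are what the knockout removes; their hairpins lie on chromosome 14. Sequences are those of RefSeq (GRCm38.p6), written 5′ to 3′ with the seed (bases 2 to 8) in capitals.
mmu-miR-17-5p: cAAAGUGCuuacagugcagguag
mmu-miR-20a-5p: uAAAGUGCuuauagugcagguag
mmu-miR-18a-5p: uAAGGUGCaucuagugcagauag
mmu-miR-19a-3p: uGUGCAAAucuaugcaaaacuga
mmu-miR-19b-3p: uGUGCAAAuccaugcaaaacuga
mmu-miR-92a-3p: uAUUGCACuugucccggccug
The 6 microRNAs hold 4 distinct seeds: miR-17-5p and miR-20a-5p share one, miR-19a-3p and miR-19b-3p share another, and miR-18a-5p and miR-92a-3p each have their own. Target sites in the mRNAs of the 9 genes were not analysed here.

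Several features of the arrays stand beside the results, and their part in them was not tested. The 75th percentile of the unscaled signal was 59.9 and 506 on the KO-labelled motor neuron arrays, 48.5 and 64.5 on the WT-labelled motor neuron arrays, 550 on the KO-labelled GFP-off array and 340 on the WT-labelled GFP-off array. Between 41.0% and 62.3% of spots per array were well above background, and no spot was saturated. All arrays shared 1 slide and 1 scan, but slide row 1 held both KO-labelled motor neuron arrays and slide row 2 held the other 4 arrays, so that genotype label and slide row cannot be told apart in motor neurons. The second WT-labelled motor neuron array correlated with arrays of other groups at r of 0.736 to 0.806 over the probes above background on all 6 arrays, and with the first WT-labelled array at 0.928. The probe of Mir17hg, the host gene of the cluster, read 4.55 and 4.78 in KO-labelled motor neurons, against −2.38 and 2.73 in WT-labelled motor neurons, and 4.62 in KO-labelled against −1.23 in WT-labelled GFP-off cells. It was thus higher under the knockout label (log2 difference in motor neurons 4.49 ± 1.29 SE, adjusted p = 0.0362, limma), with 1 of the 2 WT-labelled motor neuron arrays not well above background. Whether this probe lies within the deleted stretch is not given in the sources used here, so it does not check the labels.

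The sorted cells carried motor neuron mRNAs, but the number of markers above background did not set them apart. Of the 8 measured motor neuron markers, 8 were above background on each KO-labelled motor neuron array and 7 on each WT-labelled one. On each GFP-off array it was 8. Their summed scaled signal was 33.5 and 39.9 in KO-labelled and 12.04 and 8.15 in WT-labelled motor neurons. In GFP-off cells it was 5.19 in KO-labelled and 3.42 in WT-labelled cells. Mnx1, the gene of the Hb9 promoter, had no matched probe. The markers did not differ by label alike. Prph, Isl1 and Isl2 were higher in KO-labelled motor neurons (4.44, 2.57 and 1.97, adjusted p under 0.05, limma), as was 1 of 2 Slc5a7 probes (2.38, the other 0.51). Chat, Lhx3, Lhx4 and Slc18a3 did not pass (−0.34, 0.37, −0.35 and 0.47). Under the WT label, motor neurons minus GFP-off cells was −0.0020 for Isl1 and 0.11 for Prph, against 2.33 for Lhx3 and 3.39 for Chat. The marker sums also differed by label. Neuron markers summed to 419 and 284 in KO-labelled against 607 and 866 in WT-labelled motor neurons. Of these, only Snap25 passed (−2.70, adjusted p = 0.0310, limma). It read 7.46 and 5.28 in KO-labelled against 8.68 and 9.46 in WT-labelled motor neurons and carried most of the WT-labelled sums. The other neuron markers did not share a direction: Tubb3 and Stmn2 differed by 0.88 and 0.71, and Elavl3 by −0.62. Progenitor and cycling markers summed to 65.4 and 76.4 in KO-labelled against 49.9 and 48.4 in WT-labelled motor neurons. Fabp7, Top2a and Sox2 rose (2.98, 2.55 and 2.17, adjusted p under 0.05, limma), Sox2 with 1 of 2 WT-labelled motor neuron arrays well above background. The others did not pass and went both ways: Hes5 differed by 1.38, Nes by −0.98, the tested Pax6 probe by −0.66 and the Mki67 probes by −0.49 and 1.72. Mesenchymal sums were 479 and 402 against 384 and 301, with no call. Microglial markers summed to 25.3 and 27.7 in KO-labelled against 8.70 and 13.4 in WT-labelled motor neurons, with 9 and 10 of 10 above background against 6 and 6. In GFP-off cells the sums were 26.8 in KO-labelled and 15.5 in WT-labelled cells. Mrc1, Tyrobp, C1qa, C1qc, Fcer1g and both Cx3cr1 probes were higher in KO-labelled motor neurons (5.13, 3.95, 2.89, 2.84, 1.68, 2.08 and 2.58, adjusted p under 0.05, limma). For Mrc1, Tyrobp, C1qa and the dimmer Cx3cr1 probe no WT-labelled motor neuron array was well above background. Aif1, C1qb, Csf1r and Ptprc did not pass. Endothelial markers did not move as 1 group: Cdh5 was higher in KO-labelled motor neurons (3.78, adjusted p = 0.0149, with no WT-labelled motor neuron array well above background), as was Cldn5 (2.45, adjusted p = 0.0222, limma, with 1 of 2 well above background), while the brightest Kdr probe read 2.58 and 3.04 in KO-labelled against 3.87 and 6.83 in WT-labelled motor neurons and carried most of the endothelial sums of 7.93 and 12.97 in KO-labelled against 15.6 and 115 in WT-labelled motor neurons. Markers of neural crest and Schwann cells moved with the sorted fraction: they summed to 51.8 and 24.5 in KO-labelled and 27.5 and 24.3 in WT-labelled motor neurons, against 2.73 in KO-labelled and 3.14 in WT-labelled GFP-off cells, and Foxd3 was 19.6-fold and Sox10 15.2-fold higher in motor neurons (adjusted p = 0.0118 and 0.0275, limma). Red cell markers summed to 574 and 243 in KO-labelled and 328 and 292 in WT-labelled motor neurons, against 1352 in KO-labelled and 1457 in WT-labelled GFP-off cells. The part of these cell types in the results was not tested.

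In motor neurons, the ligase and adaptor probes did not move together with the genotype label. The first Wwp1 probe fell by 1.75 on the log2 scale and was the only one of the 13 to pass the test; none rose (limma on a model of 4 group means, Benjamini-Hochberg adjusted p under 0.05 over all 33264 probes). Among all probes tested, 24.8% passed, 10.6% higher and 14.2% lower, so 1 of 13 is no larger a share than that of all probes. Among the 19602 probes matched to a gene, as the 13 are, 14.6% were higher and 7.44% lower. The split over all probes, 3522 higher and 4727 lower here, turned under quantile normalization (1574 and 392), under normexp background correction (901 and 429), with only the brightest probe of each gene (2353 and 1080) and without the second WT-labelled array (1847 and 1354). The median difference over the 13 probes was −0.18, beside −0.20 over all probes tested and 0.28 over those matched to a gene. The KO-labelled and WT-labelled arrays did not overlap for 9 of the 13 probes, which is 69.2%, beside 69.5% of all probes and 67.7% of those matched to a gene. Of the 13, 5 were higher and 4 lower in KO-labelled motor neurons, where 29.8% of all probes were higher and 39.7% lower in this way (39.8% and 27.9% of those matched to a gene).

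Nedd4, the founding member of the family, read 6.31 and 6.28 in KO-labelled motor neurons, against 4.76 and 5.22 in WT-labelled motor neurons. Both KO-labelled arrays lay above both WT-labelled arrays. The difference of 1.30 ± 0.516 (SE, 95% interval 0.14 to 2.47, 2.47-fold) missed the threshold after adjustment over all probes (adjusted p = 0.0891, limma). Over the alternatives tried, it ran between 1.04 and 1.76, with adjusted p from 0.0523 to 0.412.

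Nedd4l, the closest relative of Nedd4, is best known for removing epithelial and voltage-gated sodium channels from the cell surface. Its first probe (A_55_P2030752) read 2.42 and 2.84 in KO-labelled motor neurons, against 2.08 and 1.09 in WT-labelled motor neurons. The second probe (A_55_P2030756) read 2.21 and 2.61 in KO-labelled motor neurons, against 2.37 and 1.43 in WT-labelled motor neurons. The groups did not overlap for the first probe and overlapped for the second, and neither difference passed (1.04 ± 0.563, adjusted p = 0.193, and 0.51 ± 0.558, adjusted p = 0.520, limma, SE).

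Itch, a ligase of immune signalling proteins that include JunB, read 1.91 and 1.84 in KO-labelled motor neurons, against 0.95 and −0.34 in WT-labelled motor neurons. The KO-labelled arrays were close together and above both WT-labelled arrays, which lay 1.29 apart. The difference of 1.57 ± 0.587 (SE) missed the threshold (adjusted p = 0.0759, limma). It passed when only probes above background on all 6 arrays were tested (adjusted p = 0.0309, limma, where 32.9% of all probes passed). Under quantile normalization (adjusted p = 0.153, limma) and normexp background correction (1.26, adjusted p = 0.226, limma) it did not pass. With each motor neuron array left out it ran between 0.93 and 2.22. The 0.93 was without the second WT-labelled array. The 2.22 was without the first and rests on the second WT-labelled array alone.

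Wwp1 and Wwp2 are close relatives within the family. The first Wwp1 probe (A_55_P2003158) read −0.57 and −1.19 in KO-labelled motor neurons, against 0.62 and 1.13 in WT-labelled motor neurons. Every KO-labelled value lay below the 75th percentile of its array and every WT-labelled value above it. This is the probe that fell, by 1.75 ± 0.538 (SE, 95% interval −2.96 to −0.54, 3.36-fold lower, adjusted p = 0.0435, limma). The call did not hold without the first or the second KO-labelled array or without the second WT-labelled array (differences −2.06, −1.44 and −1.49). Nor did it hold under quantile normalization (−1.77, adjusted p = 0.0811, limma) or normexp background correction (−1.15, adjusted p = 0.248, limma). Of all probes, 5.91% and 4% passed in these fits. It was also lost with no filter on dim probes (adjusted p = 0.214, limma) and under the additive model (−1.38, adjusted p = 0.0915, limma). No probe of any gene passed in those 2 fits, so they say nothing about Wwp1.

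The second Wwp1 probe (A_52_P165455) read −3.65 and −4.11 in KO-labelled motor neurons, against −3.77 and −1.05 in WT-labelled motor neurons. It was not well above background on the first array of either group. Only the second WT-labelled array stood apart, and the difference of −1.47 ± 0.817 (SE) did not pass (adjusted p = 0.201, limma). Without the first WT-labelled array it became −2.83 (adjusted p = 0.0111), a value that rests on the second WT-labelled array alone.

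Wwp2 read 3.17 and 3.68 in KO-labelled motor neurons, against 5.04 and 4.82 in WT-labelled motor neurons. Both KO-labelled arrays lay below both WT-labelled arrays, and the gap between the groups exceeded the spread within either. The difference of −1.50 ± 0.521 (SE, 2.84-fold lower) missed the threshold (adjusted p = 0.0612, limma). It passed when only probes above background on all 6 arrays were tested (adjusted p = 0.0285, limma, where 32.9% of all probes passed). Under quantile normalization (−1.57, adjusted p = 0.0807, limma) and normexp background correction (−0.95, adjusted p = 0.296, limma) it did not pass. With each motor neuron array left out it ran between −1.76 and −1.25.

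Smurf1 and Smurf2 are the family members known for turning over SMAD proteins and receptors of the TGF-beta and BMP pathways, and Smurf1 also targets the GTPase RhoA. Smurf1 read −1.37 and −1.30 in KO-labelled motor neurons, against −1.39 and 0.25 in WT-labelled motor neurons. The first WT-labelled array lay with the KO-labelled arrays and the second stood above them, and the difference of −0.76 ± 0.632 (SE) did not pass (adjusted p = 0.389, limma). Without the second WT-labelled array it was 0.054.

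The 3 Smurf2 probes did not give the same direction. The first (A_55_P2124619) read 1.01 and 0.98 in KO-labelled motor neurons, against 2.24 and 1.72 in WT-labelled motor neurons. The second (A_52_P472660) read 0.31 and 0.78 in KO-labelled motor neurons, against 0.90 and 1.59 in WT-labelled motor neurons. For these probes both KO-labelled arrays were the lower ones. The third (A_55_P1976057) read −0.88 and −0.70 in KO-labelled motor neurons, against −2.78 and −1.16 in WT-labelled motor neurons, with the first WT-labelled array not well above background. Here both KO-labelled arrays were the higher ones. The differences were −0.98, −0.70 and 1.18, and none passed (adjusted p = 0.182, 0.356 and 0.187, limma).

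**Figure D1:**
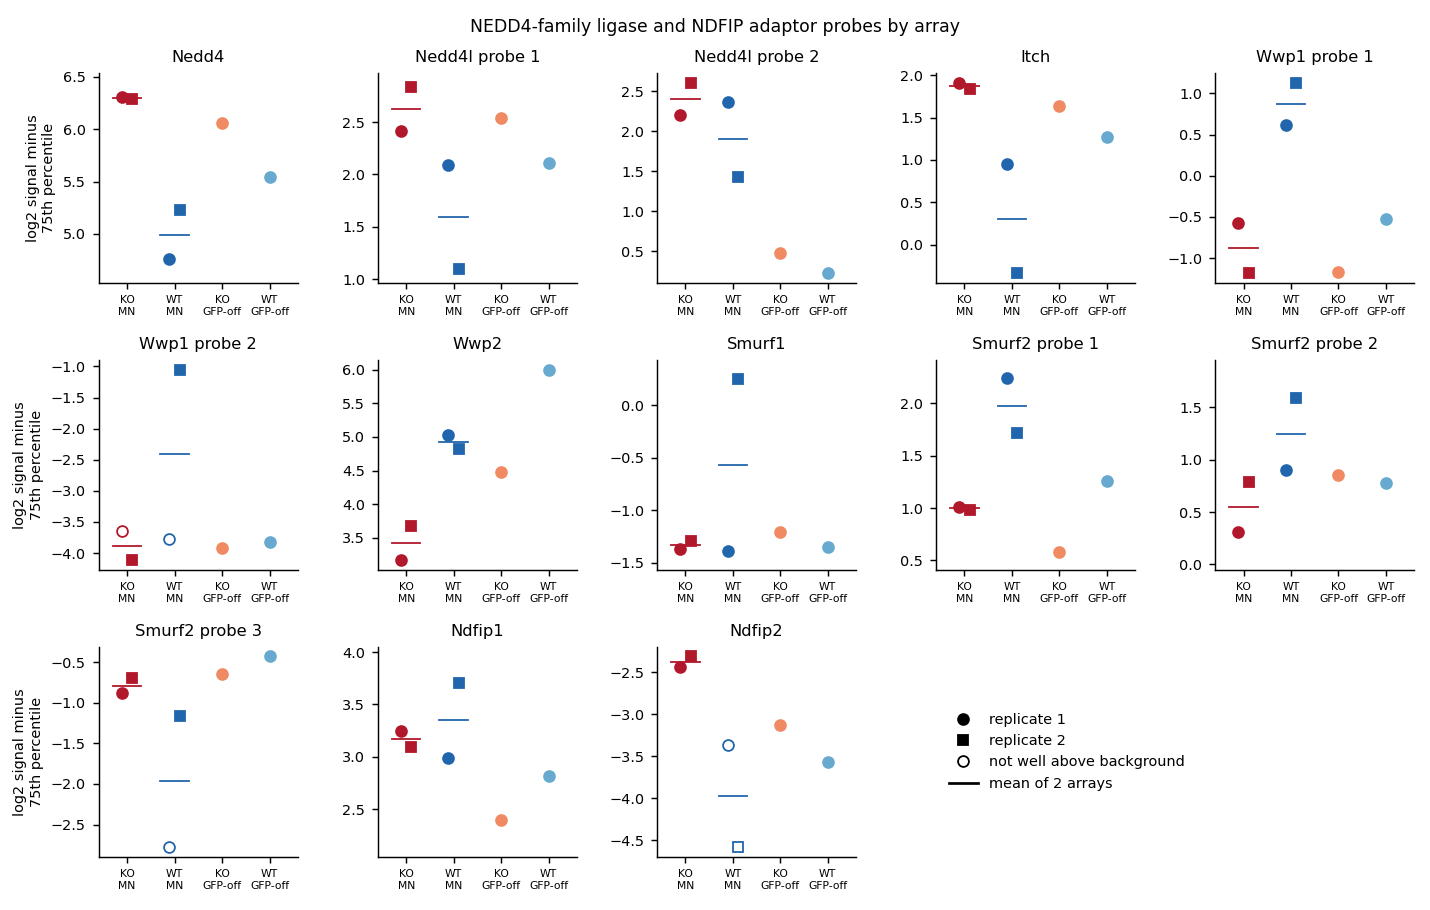
Levels of the 13 probes on each array, as log2 signal minus the 75th percentile of the array (y axis, scaled separately in each panel), for KO-labelled and WT-labelled motor neurons and KO-labelled and WT-labelled GFP-off cells. Circles are replicate 1, squares replicate 2, open symbols mark arrays not well above background and lines the mean of 2 arrays. The groups of motor neurons do not overlap for 9 of the 13 probes, beside 69.5% of all probes. The second Nedd4l probe and Ndfip1 are above both GFP-off values on all 4 motor neuron arrays.

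The adaptor Ndfip1 read 3.25 and 3.10 in KO-labelled motor neurons, against 2.99 and 3.70 in WT-labelled motor neurons. Both KO-labelled values lay between the WT-labelled values. The difference was −0.18 ± 0.532 (SE, adjusted p = 0.827, limma), and its 95% interval of −1.38 to 1.02 leaves room for a change of more than 2-fold either way. Its sign turned under normexp background correction (0.25) and without the second WT-labelled array (0.18).

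Ndfip2, the paralog of Ndfip1, was near the detection limit. It read −2.44 and −2.31 in KO-labelled motor neurons, where both arrays were well above background, against −3.37 and −4.58 in WT-labelled motor neurons, where neither was. The unscaled signals were 11.04 and 102 in KO-labelled against 4.70 and 2.70 in WT-labelled motor neurons. The fitted difference of 1.60 ± 0.579 (SE) missed the threshold (adjusted p = 0.0699, limma) and rests on WT-labelled signals below background. Set against the lowest signals called well above background on the WT-labelled arrays, no fold above 1 remained, so none is given.

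**Figure D2:**
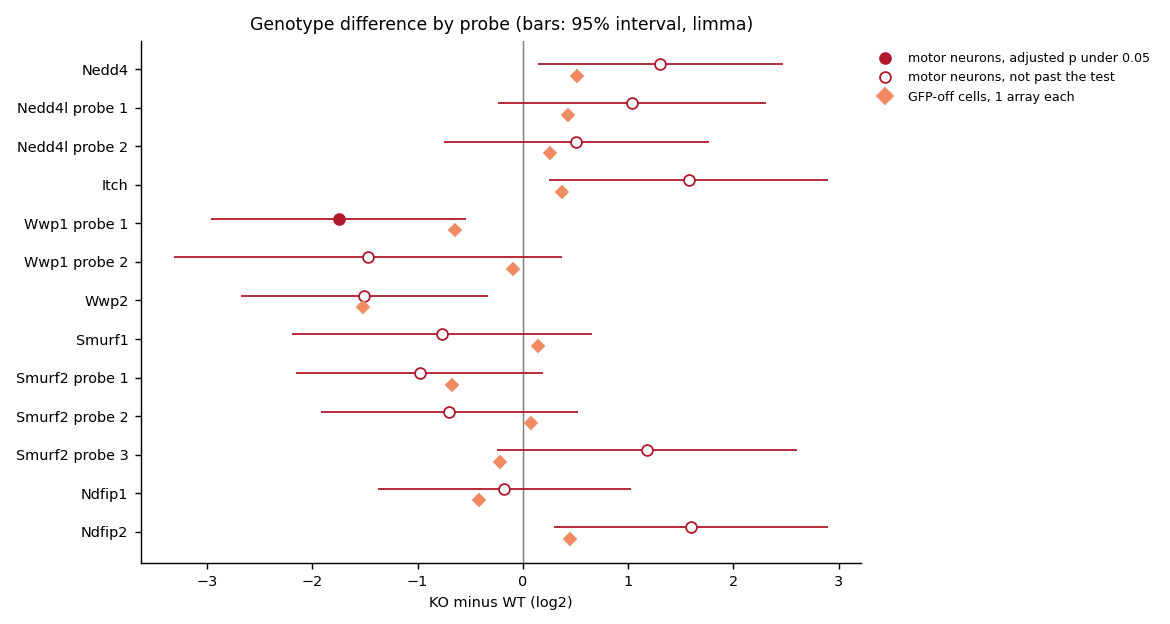
Log2 differences KO-labelled minus WT-labelled for each probe (x axis). Points with 95% intervals from limma are motor neurons, filled where adjusted p was under 0.05, and diamonds are the single GFP-off arrays, which have no error; only the first Wwp1 probe, at −1.75, is filled.

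The WT-labelled arrays were the more variable pair for these genes. They lay farther apart than the KO-labelled arrays for 11 of the 13 probes, beside 61.6% of all probes tested, with a median gap of 0.18 between the KO-labelled arrays and 0.94 between the WT-labelled arrays (0.44 and 0.66 over all probes). The gap between the WT-labelled arrays reached 2.72 for the second Wwp1 probe and 1.63 for Smurf1, while the widest gap between the KO-labelled arrays was 0.62, for the first Wwp1 probe. With 1 motor neuron array left out at a time, the number of member probes called ran between 0 and 4. The 4 calls are 30.8% of the 13 probes, in a fit where 36% of all probes passed. The 4 calls, without the first WT-labelled array, were both Wwp1 probes, which fell, and Itch and Ndfip2, which were higher (2.20 for Ndfip2, adjusted p = 0.0192, limma, with the remaining WT-labelled array not well above background).

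**Figure D3:**
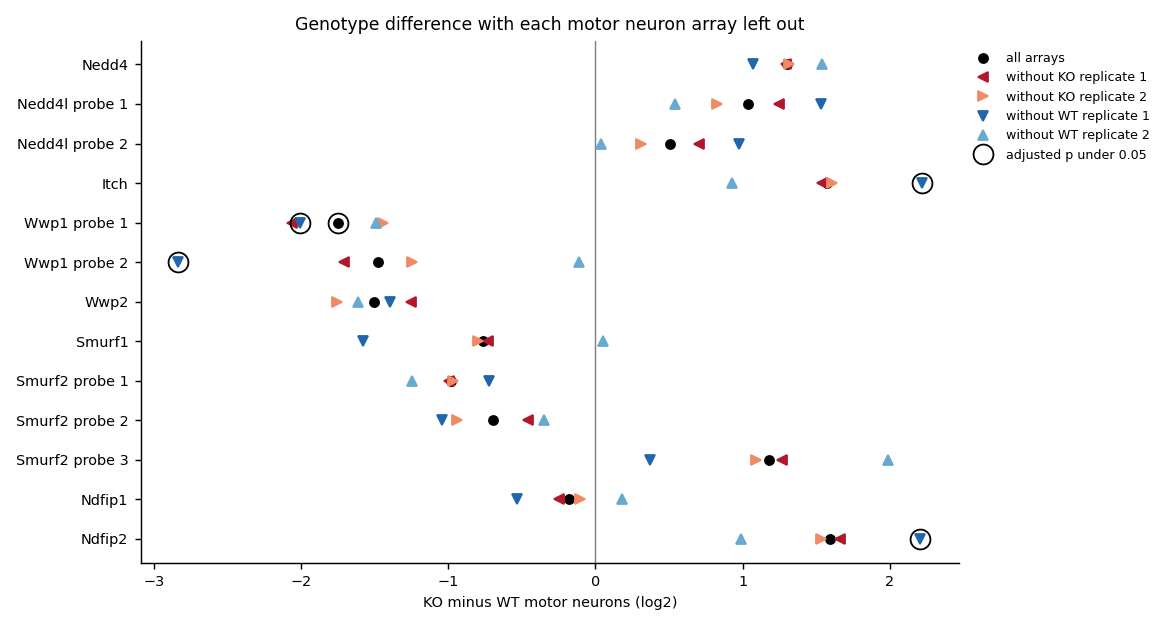
Log2 difference KO-labelled minus WT-labelled motor neurons for each probe (x axis) in the full data and with each motor neuron array left out in turn. Ringed points had adjusted p under 0.05; the 4 ringed points without the first WT-labelled array are Itch, Ndfip2 and both Wwp1 probes.

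In GFP-off cells, with 1 array per label and so no test, Wwp2 again read lower under the knockout label: 4.48 in KO-labelled against 6.001 in WT-labelled cells, a difference of −1.52. It was the only one of the 13 probes past 2-fold there, a share of 7.69%, beside 8.67% of all probes tested (2.69% higher and 5.99% lower). Nedd4 read 6.06 in KO-labelled against 5.54 in WT-labelled cells, a difference of 0.51. Ndfip1 read 2.39 in KO-labelled against 2.81 in WT-labelled cells, a difference of −0.42. The other 10 probes differed by −0.67 to 0.44. The sign of the genotype difference was the same in motor neurons and GFP-off cells for 10 of the 13 probes (76.9%, beside 74.9% of all probes); the exceptions were Smurf1, the second Smurf2 probe and the third Smurf2 probe. No probe of the 33264 passed the test of a genotype difference that differs between motor neurons and GFP-off cells (0%, limma interaction; 2805 had an unadjusted p under 0.05), and the lowest adjusted p among the 13 was 0.721, for the third Smurf2 probe.

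Between motor neurons and GFP-off cells, differences of the 13 probes ran between −1.07, for Wwp2, and 1.80, for the second Nedd4l probe. None of the 13 passed the test (limma, additive model of genotype label and sorted fraction), where 0.797% of all probes did, 0.604% higher and 0.192% lower in motor neurons. The median difference, motor neurons minus GFP-off cells, was 0.17 over the 13 probes, beside −0.09 over all. The 4 motor neuron arrays and the 2 GFP-off arrays did not overlap for 3 of the 13 probes (23.1%, beside 24.3% of all probes): the second Nedd4l probe and Ndfip1 were higher in motor neurons (9.42% of all probes) and the third Smurf2 probe lower (14.9%).

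The second Nedd4l probe read between 1.43 and 2.61 on the motor neuron arrays, against 0.49 in KO-labelled and 0.23 in WT-labelled GFP-off cells. The difference was 1.80 ± 0.482 (SE, 95% interval 0.72 to 2.87, 3.48-fold, adjusted p = 0.105, limma), with 1.92 in KO-labelled and 1.67 in WT-labelled cells alone. It passed when only probes above background on all 6 arrays were tested (adjusted p = 0.0387, where 4.38% of all probes passed). For each genotype label, a tag of unstated meaning in the descriptions links the first motor neuron array with the GFP-off array. Within these pairs, motor neurons minus GFP-off cells, the difference was 1.72 in KO-labelled and 2.14 in WT-labelled cells. With the tag as a random block, a fit added after the values were seen, it was 1.86 and passed (adjusted p = 0.0296, where 6.88% of all probes passed). The first Nedd4l probe gave no such contrast: it read between 1.09 and 2.84 on the motor neuron arrays, against 2.54 in KO-labelled and 2.11 in WT-labelled GFP-off cells, a difference of −0.22 ± 0.495 (SE, adjusted p = 0.835, limma).

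Ndfip1 read between 2.99 and 3.70 on the motor neuron arrays, against 2.39 in KO-labelled and 2.81 in WT-labelled GFP-off cells. All motor neuron values were the higher ones, but the difference of 0.66 ± 0.461 (SE, 1.58-fold) did not pass (adjusted p = 0.448, limma). It was 0.78 in KO-labelled and 0.54 in WT-labelled cells. Wwp2 went the other way, at −1.07 ± 0.450 (SE, 2.09-fold lower in motor neurons, adjusted p = 0.242, limma), with −1.06 in KO-labelled and −1.07 in WT-labelled cells. Its highest value of all 6 was that of WT-labelled GFP-off cells and its lowest were those of KO-labelled motor neurons, while KO-labelled GFP-off cells at 4.48 lay just below the WT-labelled motor neurons.

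Nedd4 levels ordered the groups differently, from KO-labelled motor neurons through KO-labelled GFP-off cells and WT-labelled GFP-off cells to WT-labelled motor neurons, and neighbours in this order differed by no more than 0.55. Its difference between motor neurons and GFP-off cells was −0.16 ± 0.464 (SE, adjusted p = 0.879, limma). For 7 of the 13 probes (53.8%, beside 64.05% of all probes) the difference between motor neurons and GFP-off cells had the same sign under both labels.

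**Figure D4:**
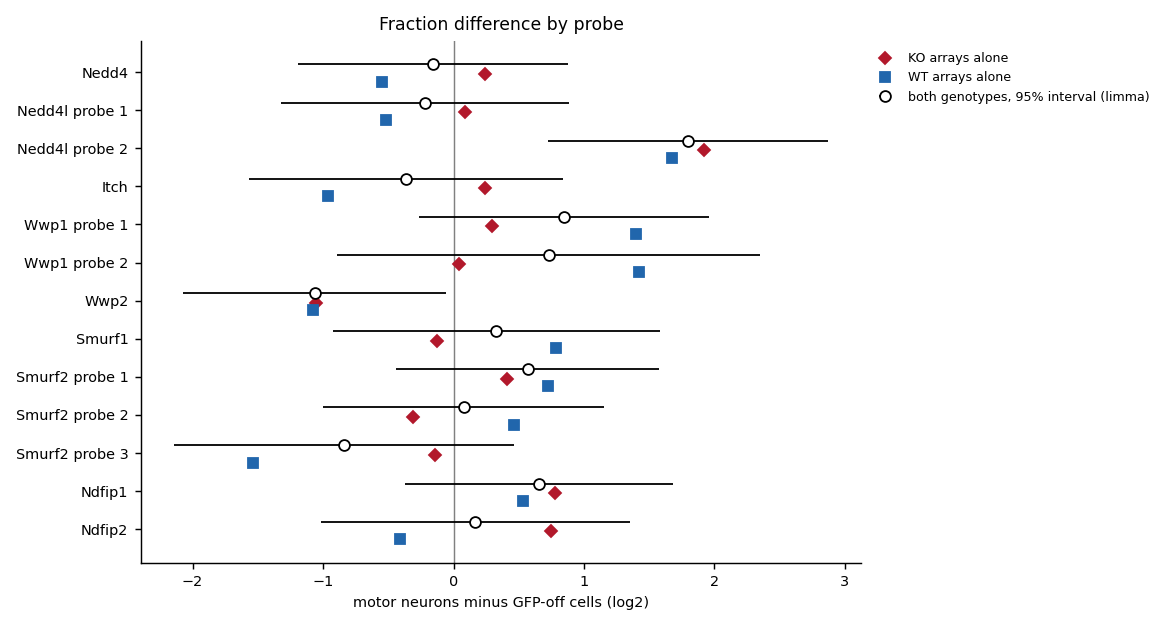
Log2 differences motor neurons minus GFP-off cells for each probe (x axis). Points with 95% intervals are both labels together from limma, diamonds KO-labelled cells alone and squares WT-labelled cells alone; the second Nedd4l probe has the largest difference, 1.80.

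Probes of the same gene were compared within each array, since a probe stands for its gene only if other probes of that gene move with it. Between the Nedd4l probes, the level of the first minus that of the second was 0.21 and 0.23 in KO-labelled motor neurons, −0.29 and −0.34 in WT-labelled motor neurons, 2.06 in KO-labelled GFP-off cells and 1.88 in WT-labelled GFP-off cells. The gap thus changed little among the 4 motor neuron arrays and was wide in both GFP-off arrays. The change of the gap between motor neurons and GFP-off cells was −2.01 ± 0.348 (SE, 95% interval −2.89 to −1.14), and stayed between −2.05 and −1.98 with each motor neuron array left out. This test was added after the values were seen, and it did not pass over the 4684 probe pairs of 3887 genes (adjusted p = 0.614, limma; 0% of pairs passed, and 320 had an unadjusted p under 0.05), nor with the tag as a block (−2.01, adjusted p = 0.358). The change of the gap with the genotype label in motor neurons was 0.53 (adjusted p = 0.381, limma). Which Nedd4l transcripts each probe detects is not given in the sources used here.

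The first Smurf2 probe and the third moved oppositely over the 6 arrays (r = −0.84, as a description over arrays that share a slide). The genotype difference of the first probe was lower than that of the third by 2.16 on the log2 scale (95% interval −4.46 to 0.14, adjusted p = 0.153, limma). Without the second WT-labelled array this became −3.23 and passed (adjusted p = 0.0472), in a fit where 11.9% of all pairs did. That value rests on the first WT-labelled array alone, where the third probe was not well above background. The first and second Smurf2 probes differed by −0.28 (95% interval −1.92 to 1.35, adjusted p = 0.768, limma) and the Wwp1 probes by −0.28 (95% interval −2.62 to 2.07, adjusted p = 0.845, limma). Their r over the 6 arrays was 0.43 for the Smurf2 probes and 0.78 for the Wwp1 probes. The interval for Wwp1 is wide enough to hold both equal and clearly unequal differences of its probes. Over all 4684 pairs, the median r was 0.33, 0 pairs passed the test of unequal genotype differences and 1673 had an unadjusted p under 0.05. The genotype difference had the same sign in both probes for 52.95% of pairs.

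**Figure D5:**
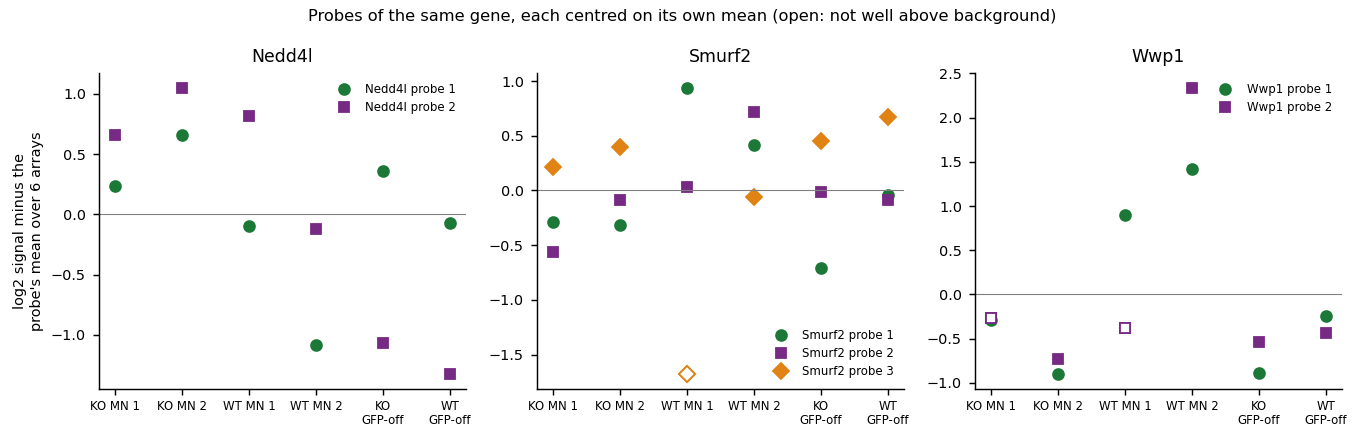
Level of each probe of Nedd4l, Smurf2 and Wwp1 on each array, centred on the mean of that probe over the 6 arrays (y axis, log2). The Nedd4l probes part on the 2 GFP-off arrays, and the third Smurf2 probe runs opposite to the first in motor neurons.

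Among other genes that work with the family, 41 were compared: the related ligases Hecw1 and Hecw2, other adaptors and binding partners, ubiquitin-activating and conjugating enzymes, and reported substrates. Of these, 39 had a probe above background, 60 probes in all. In motor neurons 10 of the 60 probes rose under the knockout label (16.7%) and 4 fell (6.67%), with a median difference of 0.44. These shares were near those of all probes matched to a gene, of which 14.6% were higher and 7.44% lower, with a median of 0.28; over all probes, named or not, they were 10.6% and 14.2%, with a median of −0.20. These counts depend on single arrays. With 1 motor neuron array left out at a time, the number of calls changed among the 60 probes, and it changed over all probes too. None of the 60 passed between motor neurons and GFP-off cells.

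Of the substrates, the Wnt signalling protein Dvl2 rose by 2.07, the small GTPase Rap2a by 1.72 and 1 of 2 probes of the GTPase Rhoa by 2.43 (the other −0.14). Notch1, a receptor of cell fate decisions, fell by 2.03 on the log2 scale, as did 1 of 2 probes of the metal transporter Slc11a2 by 3.29 (the other −0.15), which was well above background on 1 of the 2 KO-labelled motor neuron arrays. The Smad1 probes went opposite ways: the first fell by 2.22, also with 1 of 2 KO-labelled arrays well above background, and the second read −2.66 and −0.67 in KO-labelled against −3.88 and −4.07 in WT-labelled motor neurons. The second probe was called higher, but only the second KO-labelled array was well above background, so no fold is given. Adjusted p-values of these called probes were between 0.0115 and 0.0442 (limma). Calls of Dvl2, Rap2a, Notch1 and both Smad1 probes held in 1 of the 4 fits that left out a motor neuron array, that of Rhoa in 2 and that of Slc11a2 in 4.

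Of the adaptors and partners, Arrdc3, an arrestin-related adaptor with PY motifs, rose by 2.22, and Rnf11, a small PY-motif protein that binds the ligases, rose by 2.92 in 1 of 2 probes (the other 0.58). Tsg101, a subunit of the ESCRT sorting complex, read 1.07 and 2.03 in KO-labelled against −2.32 and −3.01 in WT-labelled motor neurons. Neither WT-labelled motor neuron array was well above background (log2 difference 4.21 ± 0.575 SE, adjusted p = 0.00854, limma). Set against the lowest signals called well above background on those arrays, the difference was 13.5-fold. This fold leaves out the spread between arrays and is not a lower limit: the limma interval of the log2 difference began at 2.92. Grb10, a receptor-binding adaptor that binds Nedd4, fell by 2.56. Of the conjugating enzymes that supply ubiquitin to HECT ligases, Ube2d3 rose in 1 of 2 probes (2.73; the other 0.99) and Ube2d2a in 1 of 3 (2.46; the others 1.22 and −0.26). Adjusted p-values of these other called probes were between 0.0117 and 0.0219 (limma). Of the 4 fits that left out a motor neuron array, the call of Tsg101 held in 4, those of Grb10, Rnf11 and Ube2d3 in 3, that of Ube2d2a in 2 and that of Arrdc3 in 1. No probe of Hecw1 or Hecw2 passed.

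Across the 6 arrays, the genes whose brightest probe followed Ndfip1 most closely, among 10136 genes above background on every array, were Pcdha8, Nkx1-2 and Olfm1 (Pearson r = 0.982, 0.980 and 0.975). Those closest to Nedd4 were Stab1, Wdr82 and Rfk (r = 0.994, 0.987 and 0.986). These are descriptions over 6 arrays that share a slide and fall into 4 groups. The genes were picked for the highest r among 10136, and whether such r exceed those of unrelated genes was not tested.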

How the data were processed

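Total RNA from sorted E12.5 spinal cord cells was labelled with Cy3 and read on 6 arrays of 1 slide, per the labels' protocols. Spot quantification used Agilent Feature Extraction, version 10.5.1.1 per the file headers and 9.1 per the submitters' processing notes. The deposited processed signal of each spot is an intensity, background-subtracted and not scaled between arrays, with flags of other kinds for spots above background or saturated. The values the authors deposited in their table are log2: for each array they match the log2 of that signal, less its 75th percentile, to within 0.01 for at least 99.7% of probes per array.

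Here, spots of a probe were averaged and scaled the same way. Probes were named by RefSeq accession through a table of GRCm38.p6 (26300 of 55681 probes matched); the headers name another build, so no coordinates are given. Probes well above background on at least 2 of 6 arrays entered limma 3.58.1 (R 4.3.3), with Benjamini-Hochberg adjustment over all of them and a threshold of 0.05. A model of 4 group means (2 residual degrees of freedom) gave the genotype comparison, the interaction and the probe-pair test; an additive model (3) gave motor neurons against GFP-off cells. The lone GFP-off arrays were assumed to vary like the motor neuron arrays. Steps were tested on simulated data.

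The members and lists were chosen with earlier results of these data known. Named were all members, Mir17hg, list genes past the test with their other probes, and the 3 genes most like Ndfip1 and Nedd4; 1 gene that the rule takes is counted in its list but not reported here. Same-numbered motor neuron replicates did not deviate together (r = −0.096 over 33264 probes), so replicate numbers were not used as pairs. Descriptions share a tag, of unstated meaning, between the first motor neuron array and the GFP-off array of each genotype label; the tag as a random block (estimated correlation 0.429) was added after the data were seen for motor neurons against GFP-off cells. In the model of 4 group means such a correlation could not be estimated. Alternatives were quantile normalization, normexp on the median signal (offset 50), no filter or a filter on all 6 arrays, the authors' table, the other model, the brightest probe per gene, a replicate block and leaving out each motor neuron array.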

Additional observations from a re-analysis of the deposited data

How the results depend on the processing

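The genotype calls in motor neurons depended on the processing. Against 1 called member probe, there were 0 under quantile normalization, 0 under normexp, 0 with no filter on dim probes, 0 under the additive model, 3 of the 10 members among probes above background on all 6 arrays (32.9% of all such probes), and 0 to 4 with 1 array left out. Over all probes, against 3522 higher and 4727 lower, there were 1574 and 392 under quantile normalization (median difference 0.05 instead of −0.20), 901 and 429 under normexp (median −0.45), 0 and 0 with no filter (median −1.12) and under the additive model, 2353 and 1080 with the brightest probe per gene (median 0.34), and 953 to 5308 higher and 1155 to 6670 lower with 1 array left out. The higher share was thus the smaller one as reported and the larger one under quantile normalization, under normexp, with the brightest probe per gene and without the second WT-labelled array (1847 and 1354). Where no probe at all passed, the members' 0 says nothing about them; at an unadjusted p under 0.05 there were 11490 probes with no filter and 11186 under the additive model. Between motor neurons and GFP-off cells, 1 member probe, the second of Nedd4l, was called with probes above background on all 6 arrays, and 1 with the shared description tag as a random block, against 0; over all probes, 201 higher and 64 lower became 654 and 182 there, 1365 and 924 with the tag as a block, 555 and 379 in the model of 4 group means, 41 and 34 under normexp, 0 and 0 under quantile normalization and with no filter, and 0 to 1150 higher and 0 to 645 lower with 1 array left out. The cause was not tested. Of the probe pairs, 0 to 1 of the members' was called for genotype with 1 array left out.

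Directions reversed for values that had not passed, and the cause was not tested. For genotype, these were Ndfip2 (−0.33) and Ndfip1 (0.25) under normexp, and with arrays left out Smurf1 (−1.58 to 0.054) and Ndfip1 (−0.53 to 0.18). For motor neurons against GFP-off cells, they were Ndfip2 (−0.23, quantile), the second Smurf2 probe (−0.16, normexp; −0.048 with the tag as a block), and with arrays left out Nedd4 (−0.22 to 0.0012), Ndfip2 (−0.0096 to 0.51), Smurf1 (−0.086 to 0.61), the second Smurf2 probe (−0.13 to 0.23) and the first Nedd4l probe (−0.39 to 0.038). For the interaction, they were Wwp2 (−0.075, quantile), Ndfip2 (−0.23) and the first Smurf2 probe (0.018) under normexp, and with arrays left out Wwp2 (−0.24 to 0.27), Ndfip1 (−0.11 to 0.60) and the second Nedd4l probe (−0.22 to 0.72). Among probe pairs, they were the first and second Smurf2 probes (−0.89 to 0.32) and the Wwp1 probes (−1.38 to 0.83) for genotype, and the Wwp1 probes against GFP-off cells (−0.60 under normexp, −0.34 to 0.61 with arrays left out). Among other genes, they were Slc11a2 probe 1 (0.036, quantile; −0.70 to 0.39 with arrays left out), Rhoa probe 1 (0.27, normexp; −0.40 to 0.11) and Ube2d2a probe 3 (0.077, normexp).

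With the replicate number as a block, 1 member probe was called for genotype, as without it, and over all probes 3704 were higher and 5496 lower; between motor neurons and GFP-off cells the block gave 676 higher and 367 lower over all probes and 0 members, with Smurf1 at −0.097 and the second Smurf2 probe at −0.22. The block changed no call of the 13 member probes. Over all alternatives, called probes of the other genes and of Mir17hg lost their call in 81 of the results tried. Beside these, 169 results of those genes, from called and uncalled probes, stayed the same. With no filter on dim probes and under the additive model no probe of any gene passed, so calls lost there say nothing about these genes. Low signal limits the second Wwp1 probe, the third Smurf2 probe and Ndfip2, which were not well above background on every array.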
